A study of Mus musculus with 81 samples.

Results

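The genes described here are 10 genes of centriole duplication, Plk4, Sass6, Stil, Cenpj, Cep152, Cep192, Cep135, Cep63, Cetn2 and Cetn3. They were taken by symbol from a table of 51826 genes, with Mki67, a marker of cycling cells, beside them. The table held RNA sequencing of mouse thymus and thymic lymphoma in 81 libraries from 40 mice, in a study that asked how aneuploidy affects the development of tumours. Every mouse, the normal ones included, was C57BL/6 x 129S4Sv/Jae and carried Plk4 at Col1a1, the rtTA transactivator at Rosa and centrin-GFP at Rosa. The groups were normal thymus of 8 untreated p53+/+ mice and 3 kinds of lymphoma: 10 mice were p53-/- and never treated (untreated null), 9 were p53-/- and treated (treated null), and 12 were p53+/- and treated (treated heterozygous). Treatment was doxycycline for 2 weeks from 30 days of age, and the ages at which tissue was taken are not in the labels. No doxycycline-treated normal thymus and no untreated p53+/- lymphoma were analysed here, and 1 untreated p53+/- normal thymus (mouse 819) is given as single values. In 13 lymphomas 4 or 5 biopsies were sequenced (54 libraries), and the other 18 gave 1 biopsy each.

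A centriole is duplicated once in each cell cycle. Cep152, Cep192 and Cep63 form a collar around the parent centriole that recruits the kinase Plk4, Plk4 phosphorylates Stil, and Stil brings Sass6 to build the cartwheel from which the new centriole grows. Cep135 ties the cartwheel to the microtubule wall, Cenpj (also called CPAP) sets the growth of that wall, and the centrins Cetn2 and Cetn3 are calcium-binding proteins of the centriole lumen. Several of these genes are transcribed mainly in cycling cells, and excess Plk4 makes extra centrioles, which is the purpose of the inducible transgene. The table has 1 entry for Plk4, so reads of the transgene and of the endogenous gene cannot be told apart. The labels do not name the centrin in the reporter, so its reads, where they matched a mouse centrin, are likewise part of that gene's count.

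RefSeq's GRCm38.p6 table held a promoter window, from 250 bases before to 50 bases after the gene start, for 9 of the 10 genes. The 250 bases before the start are shown for Plk4, Stil and Cep152, whose levels differed most between lymphoma and normal thymus, and for Cetn3, whose difference passed no test. Capitals mark CCAAT on either strand (ATTGG on the other strand), and in Cep152 also GGCGGGAA on the other strand, written TTCCCGCC. Starts are those of RefSeq. GENCODE M21 starts Cetn3 at base 81783077, within the stretch shown, and the CCAAT marked there lie after that start.
Plk4, chr3:40799701-40799950, plus strand: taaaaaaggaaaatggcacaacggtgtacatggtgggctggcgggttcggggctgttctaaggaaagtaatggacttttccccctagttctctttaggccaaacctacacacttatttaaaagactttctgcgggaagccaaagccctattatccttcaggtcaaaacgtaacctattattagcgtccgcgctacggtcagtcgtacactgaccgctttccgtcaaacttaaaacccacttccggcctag
Stil, chr4:114999868-115000117, plus strand: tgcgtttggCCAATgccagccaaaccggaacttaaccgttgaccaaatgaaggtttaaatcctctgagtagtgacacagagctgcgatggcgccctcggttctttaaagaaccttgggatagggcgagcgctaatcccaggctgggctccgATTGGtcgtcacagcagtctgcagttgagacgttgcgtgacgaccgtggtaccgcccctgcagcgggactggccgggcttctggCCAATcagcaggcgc
Cep152, chr2:125625114-125625363, minus strand: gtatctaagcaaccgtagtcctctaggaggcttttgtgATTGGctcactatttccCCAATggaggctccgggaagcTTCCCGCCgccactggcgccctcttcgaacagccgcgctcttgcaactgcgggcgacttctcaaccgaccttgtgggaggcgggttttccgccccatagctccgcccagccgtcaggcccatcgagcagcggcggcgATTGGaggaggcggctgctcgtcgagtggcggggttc
Cetn3, chr13:81782997-81783246, plus strand: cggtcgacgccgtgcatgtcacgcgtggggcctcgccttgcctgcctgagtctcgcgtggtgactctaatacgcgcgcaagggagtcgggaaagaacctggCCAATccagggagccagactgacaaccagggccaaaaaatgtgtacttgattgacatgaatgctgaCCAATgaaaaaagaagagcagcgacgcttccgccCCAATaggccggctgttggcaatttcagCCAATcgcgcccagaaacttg
Letters of 4 promoter motifs were searched on both strands of the 300-base windows: TTTGAA, known from cell cycle genes, GGCGGGAA and TTTCCCGC, 2 forms of the E2F motif, and CCAAT. The last of these stood in 5 of the 9 windows (Stil, Cep152, Cep135, Cetn2 and Cetn3) and in 37.4% of 32851 windows of all genes. TTTGAA stood in 1 window (Sass6; 17.9% of all windows), GGCGGGAA in 1 (Cep152; 2.19%) and TTTCCCGC in 0 (1.07%). The Plk4 window held none of the 4, and these matches describe letters and not sites in use.

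Library totals ran from 1030400 to 26871729 counts. Biopsies were summed per mouse and values are CPM, counts per 1000000 counts of the library after scaling by TMM factors. Normal mouse 387 stood apart from the other 7 normal thymuses: summed markers of the T lineage were lowest in it (1175 CPM, group median 6807), while those of the B lineage (1129 CPM, median 74.6), of fibroblasts (2790 CPM, median 243) and of fat (8770 CPM, median 1903) were highest. Untreated null lymphoma 881 had the lowest T-lineage sum (190 CPM, median 2780) and the highest B-lineage sum (1844 CPM, median 10.9) of its group. In 3 treated mice (328, 869 and 870) sex-linked genes went against the labelled sex. Calls of members that are lost without these mice are named beside the result. All 7 T-lineage, 6 thymic epithelial, 4 fat and 4 B-lineage markers listed were detected in each of the 4 groups. Thymic epithelial markers summed to 110 CPM in normal mouse 387 and to 1025 to 1799 CPM in the other 7 normal thymuses. In untreated null, treated null and treated heterozygous lymphomas they summed to 10.8 to 337, 2.02 to 153 and 3.08 to 113 CPM. Fat markers summed to 670 to 8770 CPM in normal thymus and to 35.5 to 93.8, 43.2 to 170 and 37.2 to 176 CPM in the lymphoma groups. The p53+/+ normal thymuses thus lay above every lymphoma in both sums, apart from mouse 387 in the epithelial one. Mouse 819, the p53+/- normal thymus, had an epithelial sum of 1435 CPM but a fat sum of 100 CPM, within the lymphoma range. Medians of the T-lineage sum were 2780, 3850 and 3538 CPM in lymphomas against 6807 CPM in normal thymus, those of the B-lineage sum 10.9, 10.8 and 10.4 against 74.6 CPM, and those of the erythroid sum 259, 143 and 102 against 665 CPM. The ranges of these 3 sums overlapped normal thymus in at least 1 lymphoma group each. In bulk tissue a change in the number of cells of a type and a change in RNA per cell cannot be told apart, and the part of these markers in the results below was not tested.

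Against normal thymus, the kinase, its collar proteins Cep152 and Cep192 and the cartwheel genes Stil, Sass6 and Cep135 were higher in each of the 3 lymphoma groups. Cenpj was higher in both treated groups, Cetn2 was higher and Cep63 lower in treated heterozygous lymphomas, and Cetn3 passed the test in none (adjusted p = 0.281, 0.429 and 0.861 in edgeR's quasi-likelihood test with Benjamini-Hochberg adjustment and the labelled sex as a covariate, threshold 0.05). In the order untreated null, treated null and treated heterozygous, 6, 7 and 8 of the 10 genes were called higher, against 23.2%, 25.4% and 25.6% of all 17843 genes tested. No member had every one of the 31 lymphomas above every normal thymus, which 2.95% of all genes had. Called lower were 0, 0 and 1, against 17.5%, 26.7% and 25.3% of all genes. The median log2 fold change of the 10 genes was 0.51, 0.82 and 0.66, and that of all genes tested was 0.08, -0.04 and -0.00. Of the untreated null calls over all genes, 56.9% were higher, against 46.6% without scaling factors and 64.3% without normal mouse 387. Without that mouse the medians of all genes were 0.21, 0.10 and 0.15. Without those factors the calls of Sass6 in each comparison (log2 0.35, 0.42 and 0.33), of Cep135 in the untreated null and treated heterozygous comparisons (log2 0.36 and 0.39) and of Cenpj in the latter (log2 0.52) were lost, with the direction kept. These 3 comparisons share the 8 normal thymuses and are not independent of each other. The 6 genes higher in all 3 comparisons stand beside 18.4% of all genes with the same 3 calls.

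**Figure D1:**
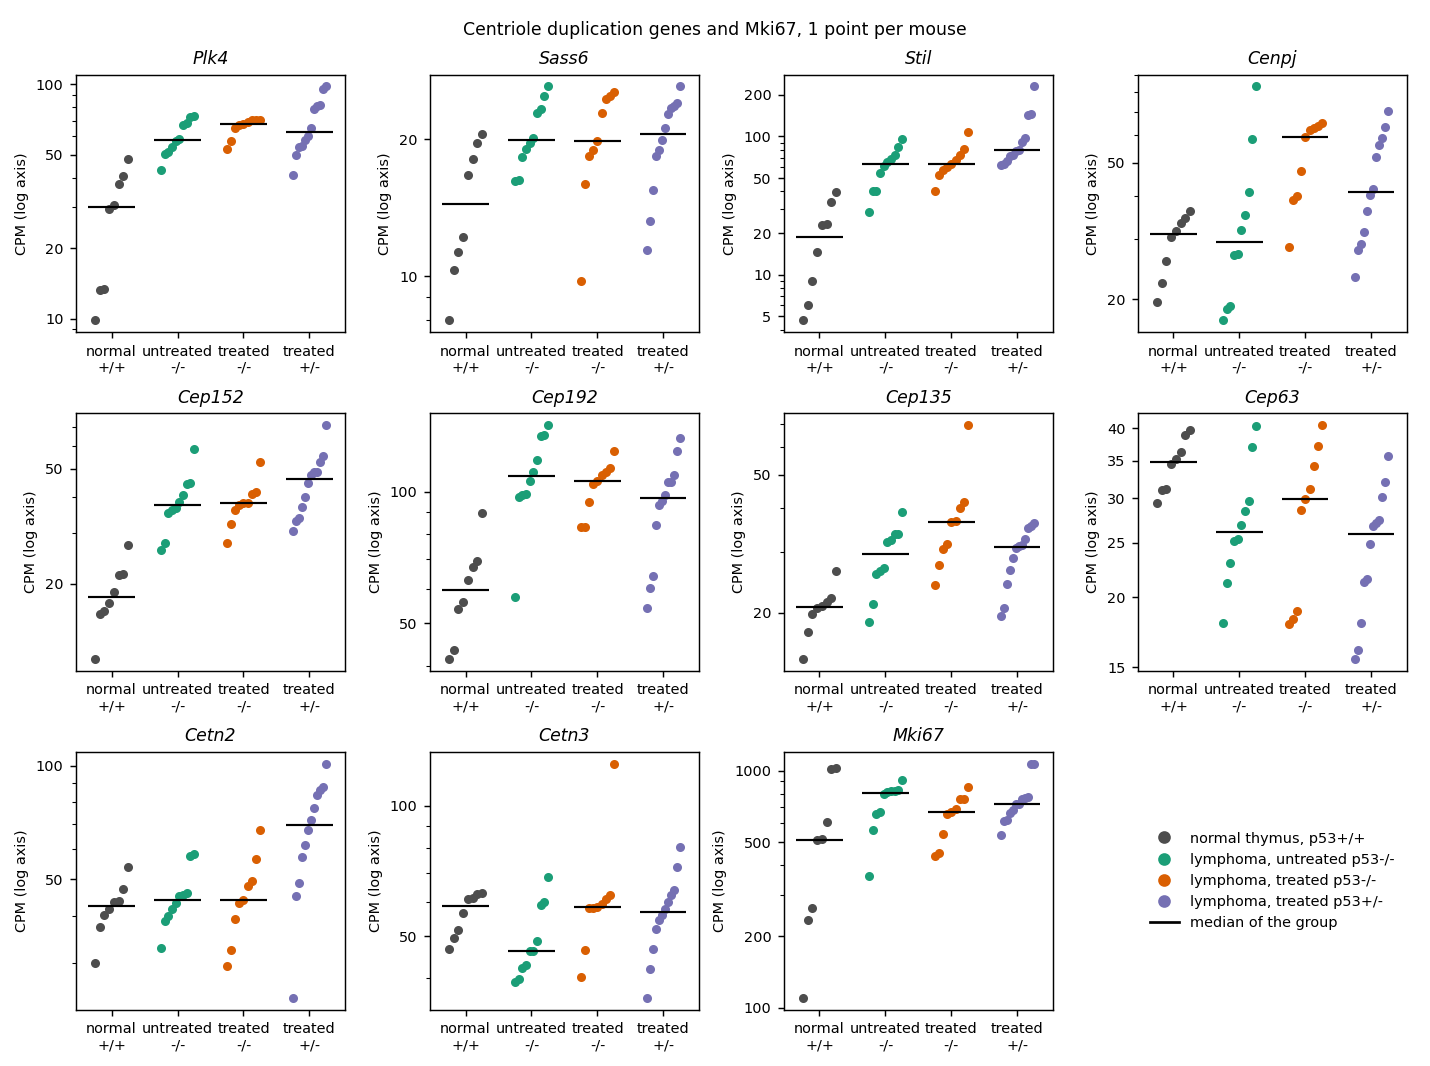
Level of each gene and of Mki67 in every mouse, in CPM on a log axis, for normal thymus and the 3 lymphoma groups; each point is 1 mouse, lines are group medians and the p53+/- normal mouse is not drawn. Stil sits between 4.68 and 39.4 CPM in normal thymus and between 28.6 and 231 CPM in the lymphomas, while Cetn3 spans 46.6 to 63 and 36 to 125 CPM.

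Plk4 (chromosome 3, 40800019 to 40816883, plus strand, GENCODE M21 on GRCm38) ran from 9.83 to 47.8 CPM in normal thymus, with a median of 30.1 CPM and 33.5 CPM in mouse 819. Its lowest, median and highest values were 42.9, 57.9 and 73.2 CPM in untreated null lymphomas, 53, 67.6 and 70.7 CPM in treated null lymphomas and 41.2, 62.7 and 98.2 CPM in treated heterozygous lymphomas. The levels of 9 of 10, 9 of 9 and 11 of 12 lymphomas lay above the highest normal thymus, and every lymphoma lay above the normal median. In the treated null group, where no lymphoma overlapped normal thymus, 8.45% of all genes showed the same separation. The spread was widest in normal thymus, where the SD of log2 CPM was 0.87, against 0.25, 0.15 and 0.39 in the lymphoma groups. Fold differences were 2.1, 2.39 and 2.5 (log2 1.07 ± 0.23, 1.25 ± 0.23 and 1.32 ± 0.22, SE; adjusted p = 0.000253, 2.01e-05 and 6.48e-06, edgeR).

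Cep152, the collar protein that hands Plk4 to the centriole wall, ran from 11 to 27.2 CPM in normal thymus (median 18). Its lowest, median and highest values were 26.3, 37.5 and 58.6 CPM in untreated null, 27.6, 38 and 52.8 CPM in treated null and 30.4, 46 and 70.8 CPM in treated heterozygous lymphomas. Neither treated group overlapped normal thymus (8.45% and 7.22% of all genes did the same in these groups), and 9 of 10 untreated lymphomas lay above it. The log2 fold change was 1.06 ± 0.18, 1.04 ± 0.17 and 1.27 ± 0.17 (SE; adjusted p = 1.05e-05, 7.34e-06 and 1.7e-07, edgeR). Cep192, the second Plk4 receptor and also an activator of mitotic kinases at the centrosome, ran from 41.4 to 89.5 CPM in normal thymus (median 59.5) and had medians of 108, 106 and 96.7 CPM in the lymphoma groups. Its ranges were 57.5 to 142, 82.9 to 124 and 54.3 to 133 CPM, and 9, 7 and 8 lymphomas lay above all normal thymuses, so the groups overlapped. Its log2 fold change was 0.81 ± 0.17, 0.79 ± 0.17 and 0.67 ± 0.16 (SE; adjusted p = 0.000301, 0.000217 and 0.000835, edgeR).

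Cep63, which partners Cep152 in the collar, was the member whose fitted change was negative in each comparison. It ran from 29.4 to 39.7 CPM in normal thymus (median 34.9), and from 18 to 40.3, 17.9 to 40.5 and 15.5 to 35.7 CPM in the lymphoma groups, with medians of 26.1, 29.9 and 25.9 CPM. Below the lowest normal thymus lay 7 of 10, 4 of 9 and 9 of 12 lymphomas. Of the 3 differences, the treated heterozygous one passed the test with all mice (log2 -0.45 ± 0.17 SE, adjusted p = 0.0268, edgeR). That call was lost without normal mouse 387 (log2 -0.35, adjusted p = 0.112) and without the mice of discordant sex genes (log2 -0.34, adjusted p = 0.124). It was also lost with no filter on low counts (adjusted p = 0.0613), with Mki67 as a covariate (0.0628) and in single-biopsy tumours (0.0923), all in edgeR. A fit of limma's voom on all biopsies, which changed the tool and left biopsies unsummed, called Cep63 lower in both null comparisons (adjusted p = 0.0425 and 0.0475). Cep63 exons overlap those of Anapc13 on the opposite strand, its estimated count was not whole in 65.4% of libraries, and whether the counting used strand is not given in the sources used here.

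Stil, the Plk4 substrate that recruits Sass6, showed the largest difference of the 10 genes in each comparison. It ran from 4.68 to 39.4 CPM in normal thymus, with a median of 18.8 CPM, and was lowest in mouse 978, which also had the lowest Mki67 and the lowest Plk4. Normal mice 387 and 961 had Stil levels of 6.0 and 9.04 CPM, and the remaining p53+/+ mice 14.6 to 39.4 CPM. Over the groups, Stil levels were as follows. Its lowest, median and highest values were 28.6, 63.1 and 96.1 CPM in untreated null lymphomas, 40.5, 62.9 and 107 CPM in treated null lymphomas and 61.8, 79.8 and 231 CPM in treated heterozygous lymphomas. The value of 231 CPM came from mouse 24, and mice 266 and 903 of the same group had 146 and 143 CPM. Both treated groups lay wholly above normal thymus, as 8.45% and 7.22% of all genes did, and so did 9 of 10 untreated lymphomas. The log2 fold change was 1.69 ± 0.34, 1.8 ± 0.34 and 2.38 ± 0.35 (SE; adjusted p = 0.000124, 4.7e-05 and 7.79e-07, edgeR).

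Sass6, the core of the cartwheel, ran from 8.0 to 20.6 CPM in normal thymus (median 14.5). Its medians were 19.9, 19.8 and 20.6 CPM in the lymphoma groups and its ranges 16.2 to 26.2, 9.75 to 25.5 and 11.4 to 26.2 CPM, so the groups overlapped widely. It passed the test narrowly in each comparison (log2 0.49 ± 0.20, 0.47 ± 0.20 and 0.46 ± 0.19, SE; adjusted p = 0.0444, 0.0443 and 0.041, edgeR). It was called in 14, 14 and 15 of 23 alternative analyses, and normal mice 961, 978 and 624 each ended all 3 calls when left out (log2 0.39 to 0.45). All 3 calls were also lost with no filter on low counts and with Mki67 as a covariate. The treated null call was also lost without the mice of discordant sex genes (log2 0.50, adjusted p = 0.0529, edgeR). Sass6 exons overlap Trmt13 and Gm42893 on the opposite strand, and its estimated count was not whole in 93.8% of libraries. Cep135, the link between cartwheel and wall, ran from 14.7 to 26.4 CPM in normal thymus (median 20.8) and had medians of 29.5, 36.5 and 31 CPM in lymphomas, with ranges of 18.8 to 39.2, 24.1 to 69.6 and 19.6 to 36.2 CPM. Its log2 fold change was 0.52 ± 0.18, 0.87 ± 0.18 and 0.51 ± 0.17 (SE; adjusted p = 0.0168, 9.88e-05 and 0.0104, edgeR). The untreated null call of Cep135 was lost in single-biopsy tumours (log2 0.40, adjusted p = 0.135), and with Mki67 as a covariate it and the treated heterozygous call were lost (log2 0.37 and 0.34, adjusted p = 0.125 for both). Cep135 lies on chromosome 5, where the median gene tested had a log2 fold change of 0.49, 0.48 and 0.44 in the same comparisons. The Cep135 difference exceeded that median by 0.03, 0.39 and 0.07, so in the untreated null and treated heterozygous groups its change was near that of a typical gene on its chromosome.

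Cenpj, the gene of wall growth, ran from 19.7 to 36.2 CPM in normal thymus (median 31). Its lowest, median and highest values were 17.4, 29.5 and 83.3 CPM in untreated null, 28.4, 59.5 and 65.3 CPM in treated null and 23.3, 41 and 70.5 CPM in treated heterozygous lymphomas. In the untreated group 3 lymphomas lay above all normal thymuses, led by mouse 637, and mice 157, 120 and 643 (17.4, 18.8 and 19.2 CPM) lay below all of them. In the treated groups 8 of 9 and 7 of 12 lymphomas lay above. The log2 fold change was 0.22 ± 0.26, 0.85 ± 0.26 and 0.64 ± 0.25 (SE; adjusted p = 0.516, 0.00618 and 0.0297, edgeR). The treated heterozygous call was lost without normal mouse 961 (log2 0.60, adjusted p = 0.0599), without normal mouse 978 (log2 0.61, adjusted p = 0.0514), and with Mki67 as a covariate (log2 0.40, adjusted p = 0.24). On chromosome 14, where Cenpj lies, the median log2 fold change of all genes tested was 0.24, 0.32 and 0.32.

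Of the centrins, Cetn2 was called in 1 comparison and Cetn3 in 0. Cetn2 ran from 29.9 to 53.8 CPM in normal thymus (median 42.6), from 32.8 to 58.2 CPM in untreated null (median 44.1) and from 29.5 to 67.4 CPM in treated null lymphomas (median 44). In treated heterozygous lymphomas it ran from 24.2 to 101 CPM with a median of 69.6 CPM, and 9 of the 12 lay above all normal thymuses. Only this last difference passed the test (log2 0.70 ± 0.18 SE, adjusted p = 0.00196, edgeR), and the other 2 had log2 fold changes of 0.08 ± 0.19 and 0.11 ± 0.19 (adjusted p = 0.778 and 0.634). Cetn2 lies on the X chromosome, where the median log2 fold change in the treated heterozygous comparison was 0.30. Of these 12 mice 3 were labelled male, against 4 of 8 normal mice, and the fit held sex as a covariate. Cetn3 ran from 46.6 to 63 CPM in normal thymus and had lymphoma medians of 46.2, 58.3 and 56.8 CPM, within that range or just under it. Its log2 fold change lay between -0.23 and 0.16, and the 95% intervals were -0.56 to 0.10, -0.16 to 0.48 and -0.28 to 0.35. Cetn3 exons overlap those of Gm17259, an antisense gene, with the same limit on strand as for Cep63, and its estimated count was whole in every library.

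Per kilobase of exon, the centrins were the most abundant members in normal thymus. The length is that of all annotated exons of a gene and not of the transcripts in use, so this scale compares genes only roughly. Cetn2 had a median of 25.9 and Cetn3 of 18.9 CPM per kb. The others followed as Cenpj with 6.37, Cep192 with 4.76, Plk4 with 4.38, Cep63 with 3.63, Stil with 3.25, Cep152 with 3.13, Cep135 with 2.89 and Sass6 with 2.36 CPM per kb. From Cenpj downward neighbours in that order lay close together, and the ranges over mice of Plk4 (1.43 to 6.97 CPM per kb) took in the medians of all members from Cenpj to Sass6.

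**Figure D2:**
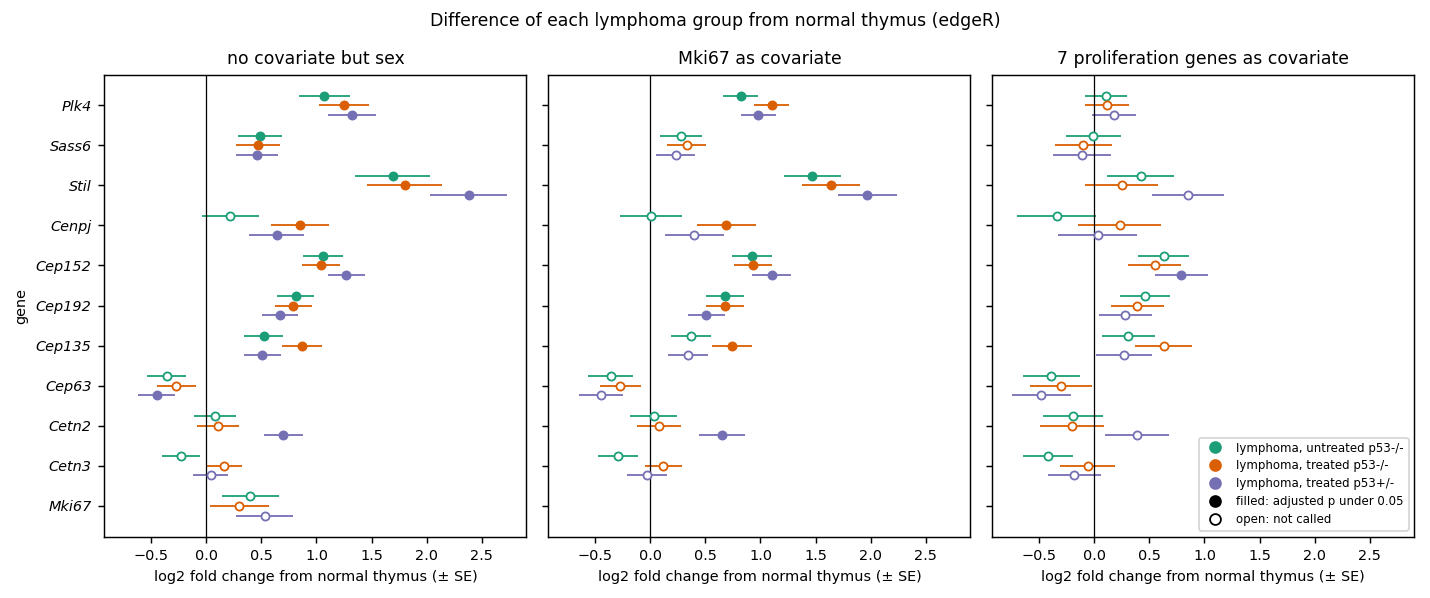
Log2 fold change of each gene between each lymphoma group and normal thymus from 3 fits, with sex alone, with Mki67 added and with the mean of 7 proliferation genes added; bars are 1 SE on each side and filled points passed an adjusted p of 0.05 in edgeR. Plk4 moves from 1.07, 1.25 and 1.32 in the first fit to 0.82, 1.1 and 0.98 in the second and 0.11, 0.12 and 0.18 in the third.

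Mki67 did not pass the test against normal thymus with all mice in edgeR, while 7 other genes of cycling cells did. Mki67 ran from 110 to 1023 CPM in normal thymus (median 512), and its medians in the lymphoma groups were 807, 668 and 723 CPM. Only 2 lymphomas, mice 24 and 328 of the treated heterozygous group, lay above all normal thymuses, and no comparison passed the test (log2 0.40 ± 0.26, 0.30 ± 0.27 and 0.53 ± 0.26, SE; adjusted p = 0.228, 0.35 and 0.0834, edgeR). The treated heterozygous difference of Mki67 passed in edgeR without normal mouse 787 (log2 0.70, adjusted p = 0.0218) and without normal mouse 818 (log2 0.70, adjusted p = 0.0227). It also passed in limma's voom on all biopsies, where the tool and the sample unit both changed (log2 0.74, adjusted p = 0.0231). Top2a, Ccnb1, Cdk1, Bub1, Aurka, Pcna and Mcm2, genes of replication and mitosis, were called higher, 7 of 7, in each comparison, with median log2 fold changes of 1.21, 1.43 and 1.48. Their summed level was 294 to 1464 CPM in normal thymus and 1531 to 2787, 1916 to 3165 and 2015 to 3192 CPM in the lymphoma groups, with no overlap.

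With log2 CPM of Mki67 as a covariate, Plk4, Stil, Cep152 and Cep192 were still called higher in each comparison. The log2 fold changes of Plk4 were 0.82 ± 0.16, 1.1 ± 0.16 and 0.98 ± 0.16 and those of Stil 1.47 ± 0.26, 1.64 ± 0.26 and 1.97 ± 0.27 (SE; largest adjusted p of these 6 = 0.000193, edgeR). Members called higher numbered 4, 6 and 5, against 19.1%, 23.3% and 21.4% of all genes. With the mean log2 CPM of the 7 proliferation genes as a covariate, a choice made after the data were seen, 0, 0 and 1 members were called higher, against 8.6%, 7.52% and 7.38% of all genes. At an unadjusted p under 0.05 that fit held Cep152 and Cep192 in the untreated null comparison, and Cep152 and Cep135 in the treated null comparison. Plk4 was then at 0.11 ± 0.19, 0.12 ± 0.20 and 0.18 ± 0.20 (SE; adjusted p = 0.737, 0.732 and 0.599, edgeR). The member still called was Cep152 in treated heterozygous lymphomas (log2 0.79 ± 0.24 SE, adjusted p = 0.0216, edgeR), where Stil was at 0.85 ± 0.33 (adjusted p = 0.0779). No normal thymus reached the summed 7-gene CPM of any lymphoma. Whether the mean log2 CPM used in this fit overlapped was not examined, so the 7-gene level and the tissue cannot be told apart in it.

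Levels relative to the 7 genes were also compared without a fit. As a percentage of the summed CPM of the 7 genes, Plk4 had medians of 2.89% in normal thymus and 2.75%, 2.68% and 2.65% in the lymphoma groups, and the normal range of 2.28% to 4.12% overlapped each. Stil had medians of 1.8%, 2.68%, 2.49% and 3.26%, and in treated heterozygous lymphomas its range of 2.84% to 7.96% lay above the normal range of 1.38% to 2.78%. Of all genes, 0.118% were above every normal thymus by this ratio in that group. Cep63 lay at 2.20% or more in normal thymus and at 1.76% or less in every lymphoma, a separation that 15.2%, 31.8% and 26.4% of all genes showed in the 3 groups. Cetn3 had a median of 5.18% in normal thymus and 2.12%, 2.28% and 2.34% in the lymphoma groups, and the medians of Sass6, Cenpj, Cep192, Cep135 and Cetn2 were likewise lower in each lymphoma group than in normal thymus. Mki67 itself was 50.2% of the sum in normal thymus and 35.1%, 28.7% and 31.5% in lymphomas (medians).

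Between the lymphoma groups no member passed the test, whether treated was compared with untreated null, treated heterozygous with treated null, or treated heterozygous with untreated null. This was true of all 16389 genes in edgeR (0% called in each), where 1917, 864 and 1037 genes had an unadjusted p under 0.05. DESeq2 on the mouse sums called 76, 12 and 3 genes. A fit of limma's voom on all biopsies, unsummed and with 16520 genes tested, called 39, 1 and 1. No member was among them in either. The Plk4 difference was 0.11 (95% interval -0.19 to 0.42), 0.04 (-0.23 to 0.31) and 0.15 (-0.15 to 0.46) on the log2 scale. These intervals hold the differences that the data allow, and the time between doxycycline and the taking of the tumour is not in the labels. The lowest adjusted p of a member was that of Cenpj in treated minus untreated null (log2 0.62 ± 0.28 SE; adjusted p = 0.405, edgeR). The lowest unadjusted p was that of Cetn2 in treated heterozygous minus treated null (log2 0.56 ± 0.19 SE; adjusted p = 0.934, edgeR), and against untreated null lymphomas it had 0.56 ± 0.21 (adjusted p = 0.776). An unadjusted p under 0.05 was also found for Cetn3 in treated minus untreated null and for Stil and Cep135 in treated heterozygous minus treated null. For Cenpj the interval of treated minus untreated null was 0.06 to 1.17, and for Stil the interval of treated heterozygous minus treated null was 0.07 to 0.96.

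In each of the 10 genes, as in the median of 11032 genes, biopsies of one tumour varied less among themselves than tumours did. The tumours were pooled over the 3 lymphoma groups, so the spread between tumours includes any difference between groups. Over 54 biopsies of 13 lymphomas the SD of log2 CPM within a tumour was 0.25 for Plk4, and the SD between tumour means was 0.40. The ratio of the latter to the former was 1.61 for Plk4, 1.77 for Stil and 2.19 for Cep63, the highest of the members, and 1.14 for Cep135, the lowest, against a median of 1.78 over 11032 genes. For Mki67 the ratio was 0.59 (0.23 between and 0.38 within), so its level varied more within tumours than between them. In mouse 905 the 4 biopsies had Mki67 levels of 527, 643, 949 and 349 CPM, and Plk4 levels of 62.8, 48.3, 61.5 and 45.3 CPM in the same order. The widest range of Stil was in mouse 884, with 90.9, 31.4, 49.2 and 42.2 CPM, where Plk4 had 48.3, 28.4, 39.7 and 37.8 CPM and Mki67 704, 401, 444 and 436 CPM, so all 3 were highest in the same biopsy. The widest range of Plk4 was in mouse 870, with 68.5, 107, 51.5 and 64.9 CPM, and there the biopsy highest in Plk4 was the lowest in Mki67 (319 CPM, the others 459, 665 and 710 CPM).

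**Figure D3:**
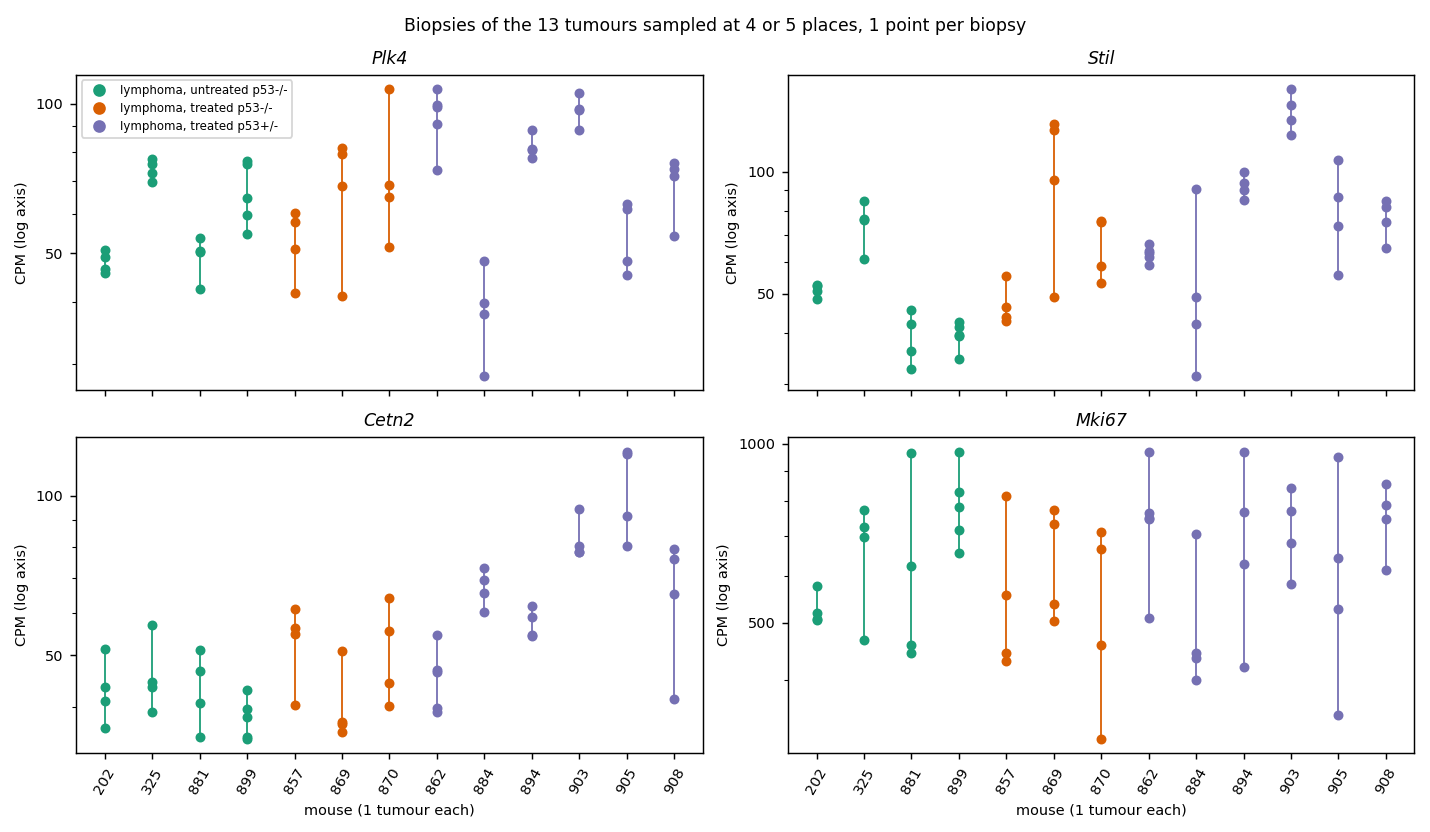
Plk4, Stil, Cetn2 and Mki67 in each biopsy of the 13 lymphomas with several biopsies, in CPM on a log axis; each column is 1 tumour and each point 1 biopsy. Mki67 points spread more within tumours (SD 0.38 on the log2 scale) than between them (0.23), while for Plk4 the tumours sit at different heights (SD of tumour means 0.40).

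In the 8 normal thymuses Plk4 and Stil followed Mki67 closely. Pearson's r of log2 CPM was 0.97 for Plk4 (exact permutation p = 4.96e-05, adjusted over all 17649 genes 0.023; Spearman's rho 0.98, exact p = 0.000397). For Stil r was 0.97 (exact permutation p = 0.000174, adjusted 0.0269; rho 0.93, exact p = 0.00223). By rank neither passed (adjusted exact permutation p of rho = 0.0722 for Plk4 and 0.104 for Stil). By Pearson's r these 2 of the 10 members passed, and 1.07% of all genes passed with a positive r. The r of Sass6, Cenpj, Cep152, Cep192 and Cetn3 lay between 0.75 and 0.81 without passing (exact permutation, adjusted p = 0.252 to 0.321), Cep135 stood at 0.62, and Cep63 and Cetn2 at -0.02 and 0.16. Without mouse 387 the r was 0.97 for Plk4 and 0.98 for Stil over 7 mice, and no gene passed any longer (adjusted exact permutation p = 0.0772 and 0.0793). Without mice 978 and 387, the 2 farthest from the Mki67 median, r was 0.94 and 0.95 over 6 mice.

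Across the 31 lymphomas the relation to Mki67 was weaker. After centring on the group mean, r with Mki67 was 0.33 for Plk4 (permutation p = 0.0693, adjusted over 17660 genes 0.606; rho 0.32, permutation p = 0.0738; 0.37 without mice 663 and 157, the 2 farthest from the median). The highest r of a member was 0.43, of Cep135 (permutation p = 0.0206, adjusted 0.496; rho 0.31, p = 0.0926; 0.28 without the same 2 mice). No member and no gene of the table passed, by this test or by an edgeR slope. The proliferation genes had low r with Mki67 here too, of 0.17 for Top2a, 0.28 for Ccnb1, 0.04 for Cdk1 and 0.17 for Bub1. For Aurka, Pcna and Mcm2 it was -0.01, 0.01 and 0.22. In normal thymus the proliferation genes had r with Mki67 between 0.83 (Mcm2) and 0.96 (Bub1). The weaker relation in lymphomas was thus not particular to the duplication genes, and its cause was not tested. Within groups, r of Plk4 with Mki67 was 0.24 in untreated null, -0.15 in treated null and 0.60 in treated heterozygous lymphomas. The difference between normal thymus and lymphoma in this relation was not tested, and the spread of Mki67 differs between them.

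**Figure D4:**
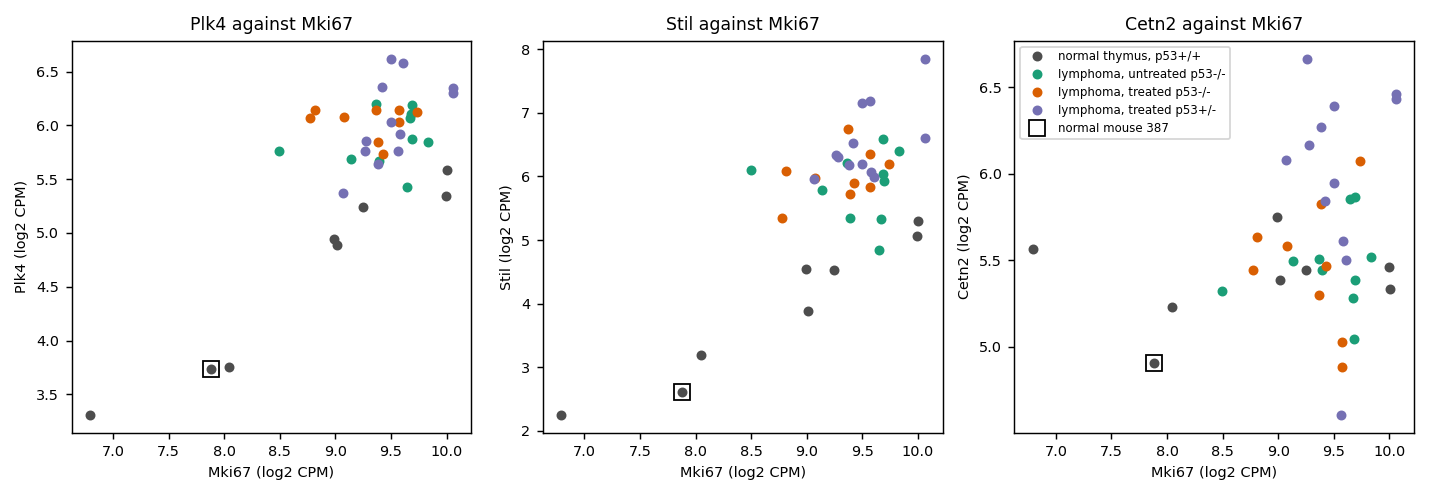
Plk4, Stil and Cetn2 against Mki67 in each mouse, both axes in log2 CPM, coloured by group, with normal mouse 387 in a square. Normal thymuses lie along a line for Plk4 and Stil (r 0.97 for both), and most lymphomas lie above it for Stil (median log2 ratio of Stil to Mki67 -4.79 in normal thymus and -3.54, -3.43 and -3.04 in the lymphoma groups), though mouse 562 does not (-4.80), with no such line for Cetn2 (r 0.16 in normal thymus).

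Relations to Plk4 itself, taken the same way over the 31 lymphomas, were positive for most duplication genes. The largest r were 0.49 for Sass6 (permutation p = 0.00458, adjusted 0.164; rho 0.43, p = 0.0176; 0.53 without mice 562 and 884), 0.47 for Cep135 (permutation p = 0.00318, adjusted 0.139; rho 0.40, p = 0.032; 0.34 without them) and 0.42 for Stil (permutation p = 0.0341, adjusted 0.309; rho 0.42, p = 0.0273; 0.27 without them). In the 18 single-biopsy tumours these r were 0.20, 0.55 and 0.53, and Cep192 went from 0.39 to 0.19. Within untreated null, treated null and treated heterozygous lymphomas r with Plk4 was 0.14, 0.40 and 0.73 for Sass6, 0.45, 0.70 and 0.53 for Cep135 and 0.59, 0.32 and 0.37 for Stil. None of the 9 other members passed, while 51 genes (0.289% of those tested) did, 28 with a positive and 23 with a negative r. Without scaling factors, Sass6 (r 0.63, adjusted permutation p = 0.0186) and Cep135 (r 0.56, adjusted p = 0.0413) passed, among 318 genes in place of 51. Of the proliferation genes, Mcm2 (r 0.61) and Ccnb1 (r 0.53) stood closest to Plk4 (adjusted permutation p = 0.0971 and 0.115). The genes most like Plk4, members aside and among those whose mean level was 2 or more on the log2 CPM scale, were Gstcd (r 0.79), Fancd2 (0.78), Dhx36 (0.75), Iws1 (0.75) and Zfp507 (0.75), each with an adjusted permutation p of 0.0186. In that order of 11092 genes Sass6 came at place 346, Cep135 at 415, Stil at 670 and Cep192 at 878, while Cetn3 and Cetn2 came at 7032 and 7154. Between them came Cep152 at 1594 (r 0.32), Cep63 at 2844 (r 0.22) and Cenpj at 3517 (r 0.18).

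Over all 31 lymphomas the centrins had an r with Plk4 near 0, of -0.05 for Cetn2 and -0.04 for Cetn3 (permutation p = 0.848 and 0.833; rho -0.16 and 0.11; without mice 562 and 884, 0.03 for both). Within untreated null, treated null and treated heterozygous lymphomas r with Plk4 was -0.54, -0.17 and 0.09 for Cetn2 and 0.44, -0.16 and -0.21 for Cetn3. In normal thymus it was 0.31 for Cetn2 and 0.90 for Cetn3. Their r with Mki67 was 0.04 and -0.04, and with each other 0.21 (permutation p = 0.285; rho 0.15). With Cetn2, no member passed, and 4 of the genes tested did (0.0227%). With Cetn3, no member passed, while 1029 genes (5.83%) did by r, and by rho 187 did with a positive and 177 with a negative value. Its largest relations among members were negative, -0.56 with Sass6 (permutation p = 0.00606, adjusted 0.0725; rho -0.34, p = 0.0625) and -0.45 with Cep192 (permutation p = 0.00658, adjusted 0.0763; rho -0.48, p = 0.00851). They were -0.40 and -0.43 without mice 25 and 857, which lie farthest from the Cetn3 median, and without those 2 mice the count of genes related to Cetn3 was 57. Within groups, r of Cetn3 with Sass6 was 0.09 in untreated null, -0.84 in treated null and -0.52 in treated heterozygous lymphomas. Of the treated null group, mouse 857 had the highest Cetn3 (125 CPM, the next 62.4 CPM) and the lowest Sass6 (9.75 CPM). The r of that group without this mouse was not computed. Relations to 4 genes (Mki67, Plk4, Cetn2 and Cetn3) were computed, each adjusted over all 17660 genes tested.

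**Figure D5:**
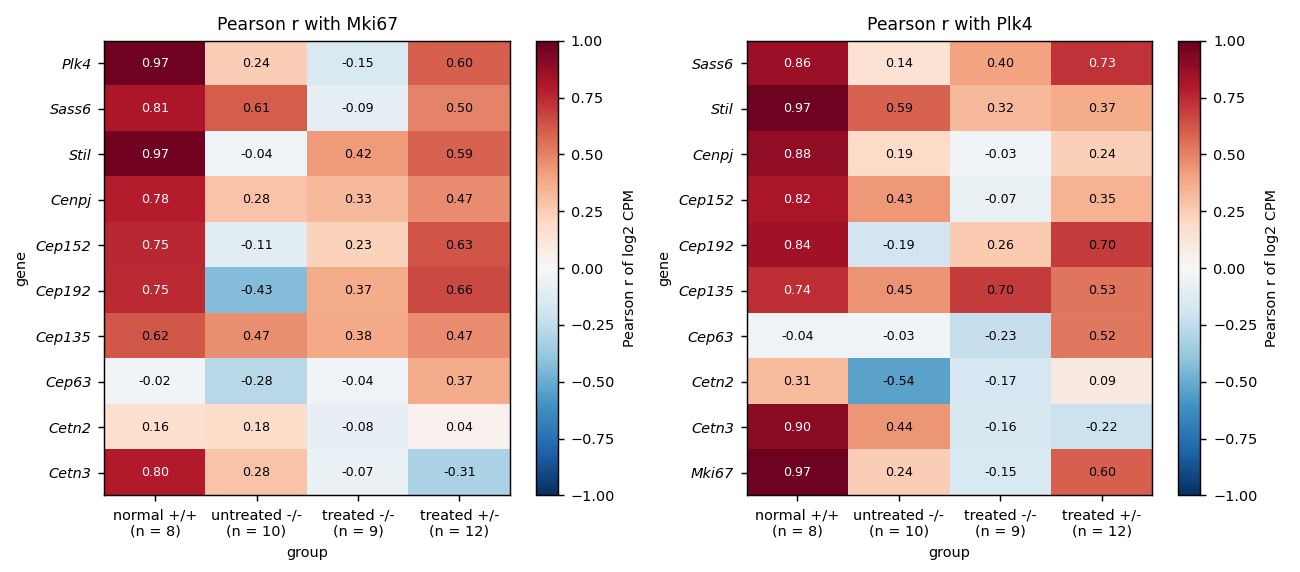
Pearson's r of each gene with Mki67 and with Plk4 within normal thymus and each lymphoma group, as coloured cells with the value printed. Values for Plk4 with Mki67 go from 0.97 in normal thymus to 0.24, -0.15 and 0.60 in the lymphoma groups, and Cep63 and Cetn2 are near 0 with Mki67 in normal thymus (-0.02 and 0.16).

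A list of 42 other centriole and centrosome genes was set beside the members, of which 41 were tested and Cetn1 had a median of 0 CPM in each group. Higher than in normal thymus were 21, 24 and 20 of the 41 and lower were 1, 4 and 4, with median log2 fold changes of 0.47, 0.58 and 0.41. Of all genes tested, 23.2%, 25.4% and 25.6% were higher and 17.5%, 26.7% and 25.3% lower, with medians of 0.08, -0.04 and -0.00. In all 3 comparisons 20 of the list were higher, beside 18.4% of all genes, 0 were lower in all 3, and 12 were never called. The largest rises by mean log2 fold change were Espl1 (1.93), the separase that lets the centriole pair disengage, Haus6 (1.71), an augmin subunit of spindle microtubules, and Nek2 (1.64), a kinase of centrosome separation. The largest falls among genes called in any comparison were Cetn4 (-1.14), a further centrin, Cep97 (-0.73), a cap protein of the centriole, and Cep85 (-0.47). Cep97 passed in both treated groups but not in untreated null lymphomas (adjusted p = 0.0973, edgeR), and Cep85 in both null groups but not in treated heterozygous lymphomas (adjusted p = 0.151). Cetn4 was called in both treated groups (log2 -1.08 ± 0.42 and -1.37 ± 0.40, SE; adjusted p = 0.0307 and 0.00418, edgeR) but not in untreated null lymphomas (-0.96 ± 0.45, adjusted p = 0.0818). It was near the lower limit of detection, with group medians of 1.66 CPM in normal thymus and 0.869, 0.966 and 0.657 CPM in lymphomas.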

How the data were processed

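RNA sequencing of 81 libraries was measured in 40 mice. A single deposited table gave expected counts, the authors' RSEM estimates of reads per gene with no scaling between libraries. Per the submitters' processing notes, the tools named are CASAVA 1.8, fastp, STAR 2.7.2b and RSEM 1.1.17, with build mm10. Of the deposited values, 14.25% were not whole, since RSEM shares ambiguous reads between genes, and they were rounded. Strandedness is not given in the sources used here. Ensembl IDs were matched to GENCODE M21 on GRCm38 (99.63% of IDs).

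The mouse was the replicate and its biopsies were summed. Groups were compared in edgeR 4.0.16 under R 4.3.3 by robust quasi-likelihood tests, after filterByExpr and TMM scaling and with the labelled sex as a covariate, in a fit of normal thymus with the 3 lymphoma groups and a fit of the lymphoma groups alone. An adjusted p-value under 0.05 is a call. DESeq2 1.42.0 on the mouse sums and limma 3.58.1 (voom) on all biopsies were alternatives. In the limma fit biopsies were not summed, and those of a mouse were treated as correlated. Correlations used log2 CPM with a prior count of 2, centred on group means, with 100000 permutations of mice within groups, or by exact enumeration in normal thymus. They were adjusted over all genes tested after the filter, 17660 in lymphomas and 17649 in normal thymus. Replicates are separate mice, and the labels give no batch. Library totals of 1030400 to 26871729 counts limit the precision of low counts, the reads carry no molecular identifiers, and 0 pairs of libraries were identical. The differential expression and correlation code was tested on simulated data. Of 2-fold and 4-fold changes, edgeR recovered 32 of 99 and 59 of 99 in treated null minus normal thymus, with 1 false call. In treated heterozygous minus treated null it recovered 40 of 99 and 82 of 97, with 4 false calls. The correlation test recovered 199 of 200 related genes, with 16 false calls. Alternatives changed the scaling, the filter, the covariates, the tool and the mice included, and left out each normal mouse in turn. With limma the tool and the sample unit changed together.

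The named genes are the 10 members, Mki67, the 7 proliferation genes, the 3 largest rises and falls of the centrosome list by mean log2 fold change among those called in any comparison, and the 5 genes with the largest r with Plk4 among genes whose mean level was 2 or more on the log2 CPM scale. The members and lists were chosen with earlier results of these data known.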

Additional observations from a re-analysis of the deposited data

Results flagged for a closer look

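Of 33 combinations of gene and group tested for a value that lies far from the rest, 3 had one, and chance alone gives about 1 in 20 (groups of 12 mice were not tested). In untreated null lymphomas, Cep192 was 57.5 CPM in mouse 120, and the next lowest was 97.3 CPM. In treated null lymphomas, Cep135 was 69.6 CPM in mouse 490, and the next highest was 41.7 CPM. In the same group, Cetn3 was 125 CPM in mouse 857, and the next highest was 62.4 CPM.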

How the results depend on the processing

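Against normal thymus, 680 of 756 values of single genes under 23 alternatives kept their direction and their side of the threshold, 55 fell below it, 5 passed it and 16 changed sign. With the 7 proliferation genes as covariate, added after seeing the data, Sass6 moved to -0.01, -0.10 and -0.11 on the log2 scale and Mki67 to -0.56, -0.89 and -0.66, of which -0.89 passed. In the same fit Cetn2 moved to -0.19 and -0.20 in the null comparisons, Cenpj to -0.34 in the untreated null one, and Cetn3 to -0.06 and -0.18 in the treated ones. Without scaling factors Cetn2 was at -0.06 (untreated null) and Cetn3 at -0.10 (treated heterozygous). Cetn3 was also at -0.03 with Mki67 as covariate (treated heterozygous) and at -0.05 and -0.10 in single-biopsy tumours (treated null and heterozygous). Of the values that changed sign only those of Sass6 had been called. The 7-gene covariate left 0, 0 and 1 members higher, 0 lower in the treated heterozygous comparison, and 2572, 2506 and 2357 genes called in place of 7270, 9293 and 9079. In the treated heterozygous comparison 5 members were higher without scaling factors and with Mki67 as covariate. The 1 lower call (Cep63) became 0 with no filter on low counts, with Mki67 as covariate, without mice of discordant sex genes, with single-biopsy tumours, and without normal mouse 387. limma's voom on all biopsies, where the tool and the sample unit both changed, gave 1 lower call (Cep63) in both null comparisons. Leaving out each normal mouse gave 5 to 6, 6 to 7 and 6 to 8 members higher and, in the treated heterozygous comparison, 0 to 1 lower. Leaving out lymphoma 881, also added after seeing the data, changed no call of a member. Without scaling factors the median log2 fold change of all genes was -0.05, -0.09 and -0.12 in place of 0.08, -0.04 and -0.00.

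Between lymphoma groups, genes called went from 0 to 76, 12 and 3 with DESeq2. They went to 39, 1 and 1 with voom on all biopsies, where the tool and the sample unit both changed. Treated against untreated null gave 1 with Mki67 as covariate, and treated heterozygous against untreated null gave 7 with no filter and 21 with no sex covariate. No member was called under any of the 13 alternatives, and 18 of 426 values of single genes, none of them called, changed sign. For treated minus untreated null, these were Cep192 0.04, Sass6 0.04, Stil 0.01 and Cep152 0.02 without scaling factors, and Cep192 0.04, Sass6 0.01 and Stil 0.09 with voom on all biopsies. They were Stil 0.12 with no sex covariate and 0.06 with sex from expression, Sass6 0.02 with Mki67 as covariate, and Cep192 0.03 and Cep63 -0.01 in single-biopsy tumours. For treated heterozygous minus treated null, Plk4 was at -0.03 without scaling factors, -0.05 with Mki67 as covariate and -0.04 in single-biopsy tumours, where Cenpj was at 0.03. For treated heterozygous minus untreated null, Cep135 was at 0.01 with no sex covariate and 0.12 in single-biopsy tumours.

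Genes related to Plk4 numbered 318 without scaling factors (2 members), 31 at a mean CPM of at least 1, 19 without the 2 farthest mice and 0 in single-biopsy tumours. Those related to Cetn2 numbered 13 without scaling factors, 9 with RLE factors, 13 at a mean CPM of at least 1, 118 without centring, 38 by an edgeR slope, and 0 in single-biopsy tumours and without the 2 farthest mice. Those related to Cetn3 numbered 139 without scaling factors, 57 without the 2 farthest mice and 0 in single-biopsy tumours, and 1 member (Sass6) passed with RLE factors and without centring. In normal thymus without mouse 387, added after seeing the data, 0 members passed in place of 2. Of 330 correlations under alternatives, 30 changed sign and none of these was called. In single-biopsy tumours r with Mki67 became 0.006 for Cetn3, -0.019 for Cep192 and -0.085 for Cep63, and r with Plk4 became 0.051 for Cetn3, 0.127 for Cetn2 and -0.068 for Cep63. There r with Cetn3 became 0.096 for Stil and 0.198 for Cep152. Without the 2 farthest mice r with Mki67 became -0.008 for Cetn2 and -0.05 for Cep63, and r with Plk4 became 0.035 for Cetn3, 0.031 for Cetn2 and -0.007 for Cep63. There r with Cetn2 became 0.124 for Stil and 0.083 for Cep152, and r with Cetn3 became 0.013 for Plk4 and 0.058 for Cep135. Without centring, Cep63 with Mki67 became -0.031, Cetn3 and Cetn2 with Plk4 became 0.047 and 0.042, and Stil and Cep152 with Cetn2 became 0.205 and 0.072. Without scaling factors Cetn2 with Plk4 became 0.063. In normal thymus without mouse 387, Cetn2 with Mki67 became -0.142. Apart from the settings that leave out mice or test fewer genes, the cause of these changes was not tested. No paired analysis was possible because the replicate numbers were given in accession order and the labels pair no mice across groups.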
